A study of Bos taurus with 15 samples.

Results

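The BCL2 family is a set of related proteins that decide whether the outer membrane of the mitochondrion stays closed or is opened, the step that commits a cell to intrinsic apoptosis. Its pro-survival proteins, such as MCL1, BCL-XL (gene BCL2L1) and BCL-W (BCL2L2), hold the pore formers BAX and BAK (BAK1) in check, and the pore former BOK less so. The BH3-only proteins, such as BID, BAD and BIM (BCL2L11), bind the pro-survival proteins or activate the pore formers directly. Blastocysts normally lose some cells by apoptosis, mostly in the inner cell mass, and MCL1 is needed for early development in the mouse. The family genes followed here, chosen by their bovine symbols, were MCL1, BCL2L1, BCL2L2, BAX, BAK1, BOK, BID, BAD, BCL2L11 and BCL2L13, the last one coding for an outer-membrane protein of mitochondria that also acts as a mitophagy receptor. All 10 were present among the 10832 genes of the filtered count table.

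The embryos were bovine blastocysts made by in vitro fertilization and sampled on day 7, as the labels give it, and RNA was sequenced from pools of 8 to 14 embryos. One treatment, called Co, received no vesicles in the culture medium. The other treatments received extracellular vesicles from the oviduct (oEVs), taken from cows after ovulation, either fresh (FeEV) or after freezing (FoEV). The study states that the fresh and the frozen vesicles came from the same oviducts. Each of the 3 treatments had 5 libraries made from 1 ng of total RNA. Breed, sire and the link of a pool to a culture day were not in the labels, so a p-value here measures the spread between these pools. A pool holds trophectoderm, inner cell mass and hypoblast together, and in such bulk RNA fewer cells that express a gene and less RNA of it per cell cannot be told apart.

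Reads counted on the filtered genes ran from 2117202 to 4011306 per library. They lay between 2548405 and 2947539 in Co, 2117202 and 3779013 in FeEV and 3361648 and 4011306 in FoEV, so every FoEV library was deeper than every Co library. Trophectoderm markers, summed over a list of 10 genes, lay between 8171 and 11298 CPM (reads of the gene per 1000000 reads of the library) in Co, between 8541 and 13028 in FeEV and between 10425 and 14117 in FoEV. Of the 9 trophectoderm genes tested, 4 had an unadjusted p under 0.05 in FoEV against Co, all of them higher in FoEV, where 15.1% of all genes had one (8.18% higher). All 9 were higher in FoEV, with a median log2 fold change of 0.20 beside 0.01 over all genes. None passed the adjusted threshold in the main edgeR quasi-likelihood fit, while the keratin KRT18 was called by edgeR's likelihood ratio test (adjusted p = 0.00379) and by DESeq2 (adjusted p = 0.00849). The quasi-likelihood test also called KRT18 with no filter on low counts (adjusted p = 5.7e-06), with replicate number as a block (adjusted p = 0.0126) and without FoEV replicate 2 (adjusted p = 0.0410). The 7 inner cell mass markers overlapped between treatments in their sum (352 to 461, 338 to 459 and 333 to 532 CPM), with FGF4 at 0 in FoEV and holding 1 read in all of Co and 6 in all of FeEV. Of the 5 tested, 1, the pluripotency factor NANOG, had an unadjusted p under 0.05, beside 15.1% of all genes in FoEV against Co and 4.15% in FeEV against Co. NANOG was lower than in Co in both FoEV and FeEV. Its levels were 80.4 ± 19.9, 52.1 ± 13.2 and 45.0 ± 16.7 CPM in Co, FeEV and FoEV (SD, n = 5). The 5 genes did not move together in FoEV against Co, where 2 rose and 3 fell around a middle log2 value of -0.03. In FeEV against Co 1 rose and 4 fell, around a middle value of -0.19. NANOG was not called by the quasi-likelihood test and was called in FoEV against Co by the likelihood ratio test (adjusted p = 0.00670 in edgeR) and by DESeq2 (adjusted p = 0.0338). The 6 hypoblast markers summed to 555 to 876 CPM in Co, 600 to 753 in FeEV and 557 to 756 in FoEV. Of the 5 tested, 4 had a lower mean in FoEV than in Co, with a median log2 fold change of -0.46 beside 0.01 over all genes, and 1 of them, RSPO3, had an unadjusted p under 0.05 (log2 -0.76, edgeR adjusted p = 0.162). With no filter on low counts edgeR called RSPO3 (adjusted p = 0.0411), and the likelihood ratio test called HNF4A (adjusted p = 0.0374), both lower in FoEV. The 5 oviduct epithelium markers summed to 33.4 to 235 CPM in Co, 49.6 to 142 in FeEV and 64.8 to 146 in FoEV, and the 5 cumulus cell markers to 23.1 to 44.6 CPM over all libraries. The part of depth and of these markers in the results on the BCL2 family was not tested, other than by thinning all libraries to one depth.

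MCL1 (gene 788087), a short-lived pro-survival protein that restrains BAK and BIM, was lower in FoEV than in Co by a log2 fold change of -0.27, and no library of one treatment reached the range of another. In Co it stood at 261.1, 261.1, 263.5, 266.9 and 288.1 CPM in replicates 1 to 5, the order used throughout, after trimmed-mean (TMM) scaling of the library totals. In FeEV it stood at 241.4, 257.7, 241.8, 258.7 and 243.6 CPM. In FoEV it stood at 212.8, 226.0, 240.0, 204.3 and 229.5 CPM. The lowest Co library was above the highest FeEV library, and the lowest FeEV library was above the highest FoEV library. Mean levels were 268 ± 11.4 CPM for Co, 249 ± 8.78 for FeEV and 223 ± 14.1 for FoEV (SD, n = 5). These values rest on 568 to 919 reads per library. The deposited gene counts do not separate the long, pro-survival transcript of MCL1 from its shorter, pro-apoptotic splice form.

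**Figure D1:**
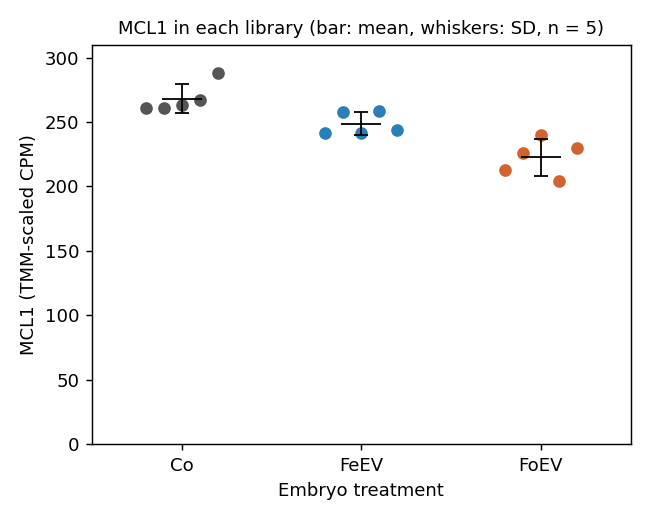
MCL1 in each of the 15 libraries, as TMM-scaled CPM on an axis that starts at 0. Points are libraries, the horizontal bar is the mean and the whiskers the SD of 5 libraries. Co lies at 261.1 CPM and above, FeEV between 241.4 and 258.7 CPM, and FoEV at 240.0 CPM and below.

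The edgeR quasi-likelihood test did not call MCL1 in any of the comparisons after Benjamini-Hochberg adjustment over all genes. For FoEV against Co the fold was 0.830 with a 95% interval of 0.746 to 0.924, an SE of 0.07 on the log2 scale, an unadjusted p of 0.00151 and an adjusted p of 0.131. For FoEV against FeEV the log2 fold change was -0.16 (SE 0.07, unadjusted p = 0.0431, edgeR adjusted p = 0.572), a fold of 0.896 with an interval from 0.805 to 0.996. For FeEV against Co it was -0.11 (SE 0.07, unadjusted p = 0.156, edgeR adjusted p = 1.00), and the interval of the fold, 0.833 to 1.03, included no change. Both comparisons with Co share the Co libraries. The study's methods name edgeR with robust dispersions and a likelihood ratio, and the study reports MCL1 as lower with frozen oEVs. The call for FoEV against Co depended on the tool, because the quasi-likelihood test replaced that test here. With robust dispersions and a likelihood ratio test, edgeR gave MCL1 an adjusted p of 0.0368, and DESeq2 gave 0.00618. Over all settings tried, this adjusted p ran from 0.00618 to 0.301, and the log2 fold change stayed between -0.30 and -0.24 when each library was left out in turn.

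Separate ranges were uncommon in the table as a whole. In FoEV against Co the ranges were separate for 2.6% of the 10832 genes (1.35% lower in FoEV), in FeEV against Co for 0.951% (0.415% lower in FeEV) and in FoEV against FeEV for 1.5% (0.748% lower in FoEV). MCL1 was the single one of the 10 family genes among them each time. MCL1 was also the only gene of the table, 0.00923% of it, whose ranges were separate in all 3 treatments. This held with DESeq2 size factors and, again under TMM scaling, with ribosomal RNA genes removed (0.00924% of the remaining 10827 genes). It also held, under TMM scaling, with all libraries thinned to one depth by a single random draw. It did not hold with plain library totals, where Co lay at 249 to 285 CPM, FeEV at 231 to 268 and FoEV at 182 to 240. Under plain totals, and likewise with totals of the unfiltered table, no gene separated all 3 treatments, and for MCL1 only FoEV and Co remained apart. The gaps under TMM scaling were narrow. The lowest Co library stood at 261.1 CPM and the highest FeEV library at 258.7 CPM. The lowest FeEV library stood at 241.4 CPM and the highest FoEV library at 240.0 CPM. Both gaps were smaller than the counting error of MCL1, which was 3.69%, 3.67% and 3.48% in Co, FeEV and FoEV.

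**Figure D2:**
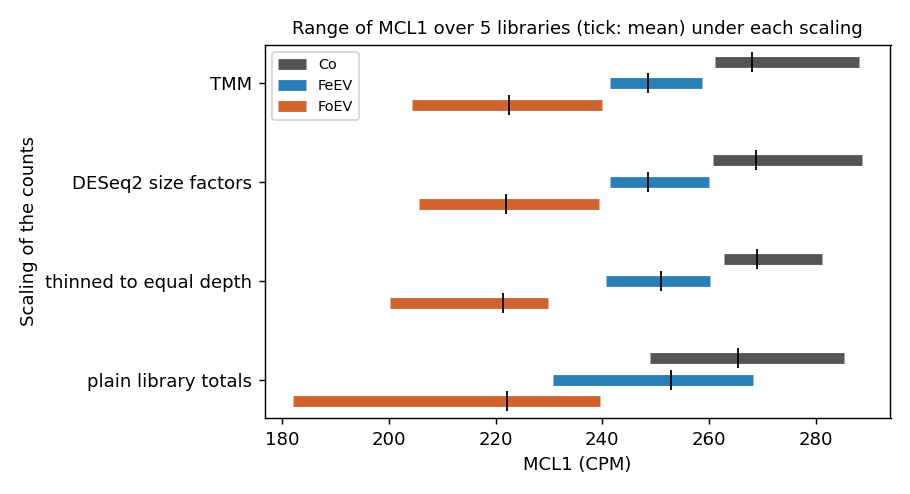
Range of MCL1 over the 5 libraries of each treatment, in CPM, under 4 ways of scaling the counts. Each coloured bar runs from the lowest to the highest library and the black tick is the mean. The 3 treatments are apart under the upper 3 scalings, and under plain library totals the FeEV bar, 231 to 268 CPM, overlaps both others.

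The other pro-survival genes showed no such order. BCL2L1, whose product BCL-XL guards mitochondria alongside MCL1, had mean levels of 64.0 ± 7.98 CPM for Co, 64.3 ± 5.90 for FeEV and 67.0 ± 13.7 for FoEV (SD, n = 5). Its single libraries ran from 49.9 to 86.8 CPM, with both extremes in FoEV. For FoEV against Co the log2 fold change was 0.06, and the 95% interval of the fold, 0.869 to 1.25, leaves room for a modest change in either direction. BCL2L2 was sparse, at 11 to 36 reads per library, with 7.29 ± 2.19, 8.34 ± 1.76 and 7.14 ± 1.99 CPM in Co, FeEV and FoEV. Its interval for FoEV against Co, 0.686 to 1.44, was wide.

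BCL2L13 had 82.3 ± 8.89, 76.9 ± 6.32 and 82.5 ± 13.8 CPM in Co, FeEV and FoEV, and its fold for FoEV against Co lay between 0.852 and 1.18. Its ranges overlapped in all comparisons, and its fold in FoEV against Co was the closest to 1 among the 10 genes.

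Both classical pore formers had their highest mean in FoEV, without passing the adjusted threshold. BAK1, the pore former that sits in the mitochondrial membrane and is held by MCL1 and BCL-XL, stood at 32.1, 19.9, 19.3, 18.5 and 17.2 CPM in Co. In FeEV it stood at 20.9, 22.3, 15.6, 21.9 and 17.3 CPM, and in FoEV at 37.5, 31.0, 24.5, 44.7 and 19.4 CPM. Of the 5 FoEV libraries, 4 were above every FeEV library, while FoEV replicate 5, at 19.4 CPM, lay inside both other ranges. Co replicates 1 and 2, at 32.1 and 19.9 CPM, fell within the FoEV range. The means were 21.4 ± 6.05, 19.6 ± 2.95 and 31.4 ± 10.1 CPM in Co, FeEV and FoEV (SD, n = 5). The fold was 1.61 for FoEV against FeEV, with a 95% interval of 1.19 to 2.16 (log2 0.69, SE 0.21, unadjusted p = 0.00321, edgeR adjusted p = 0.453). With no filter on low counts the adjusted p of this comparison was 0.0451, and no other setting called it. For FoEV against Co the fold was 1.46, with an interval of 1.09 to 1.97 (log2 0.55, SE 0.21, unadjusted p = 0.0146, edgeR adjusted p = 0.219). Single libraries moved this value, to a log2 of 0.40 without FoEV replicate 4 (unadjusted p = 0.0609 in edgeR) and to 0.74 without Co replicate 1 (unadjusted p = 0.00142 in edgeR). FeEV and Co differed by -0.14 on the log2 scale, with an unadjusted p of 0.530 in edgeR.

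BAX, the pore former that moves from the cytosol to mitochondria, stood at 25.9, 27.7, 28.1, 26.1 and 28.3 CPM in Co. In FeEV it stood at 31.6, 21.2, 38.8, 32.3 and 26.0 CPM, and in FoEV at 38.0, 26.5, 31.4, 45.1 and 31.9 CPM. The Co libraries were tightly grouped, 4 of the 5 FoEV libraries were above all of them, and FoEV replicate 2 fell within the Co range. The means were 27.2 ± 1.14, 30.0 ± 6.70 and 34.6 ± 7.15 CPM (SD, n = 5). For FoEV against Co the log2 fold change was 0.34 (SE 0.16, unadjusted p = 0.0407, edgeR adjusted p = 0.308). Without FoEV replicate 4 it was 0.23, with an unadjusted p of 0.144 in edgeR. For FeEV against Co it was 0.14 and for FoEV against FeEV 0.20, with unadjusted p of 0.392 and 0.208 in edgeR.

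BOK, a pore former that is less dependent on the pro-survival proteins, was counted only 7 to 31 times per library. It had 7.57 ± 2.37, 6.80 ± 2.82 and 6.14 ± 3.20 CPM in Co, FeEV and FoEV. Its log2 fold change for FoEV against Co, -0.33 (SE 0.35, unadjusted p = 0.361 in edgeR), was smaller than its error. Its libraries spread by a coefficient of variation of 31.4%, 41.4% and 52.2% in Co, FeEV and FoEV, beside 21.9%, 22.6% and 21.4% of counting error. The part of depth in that spread was not tested.

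**Figure D3:**
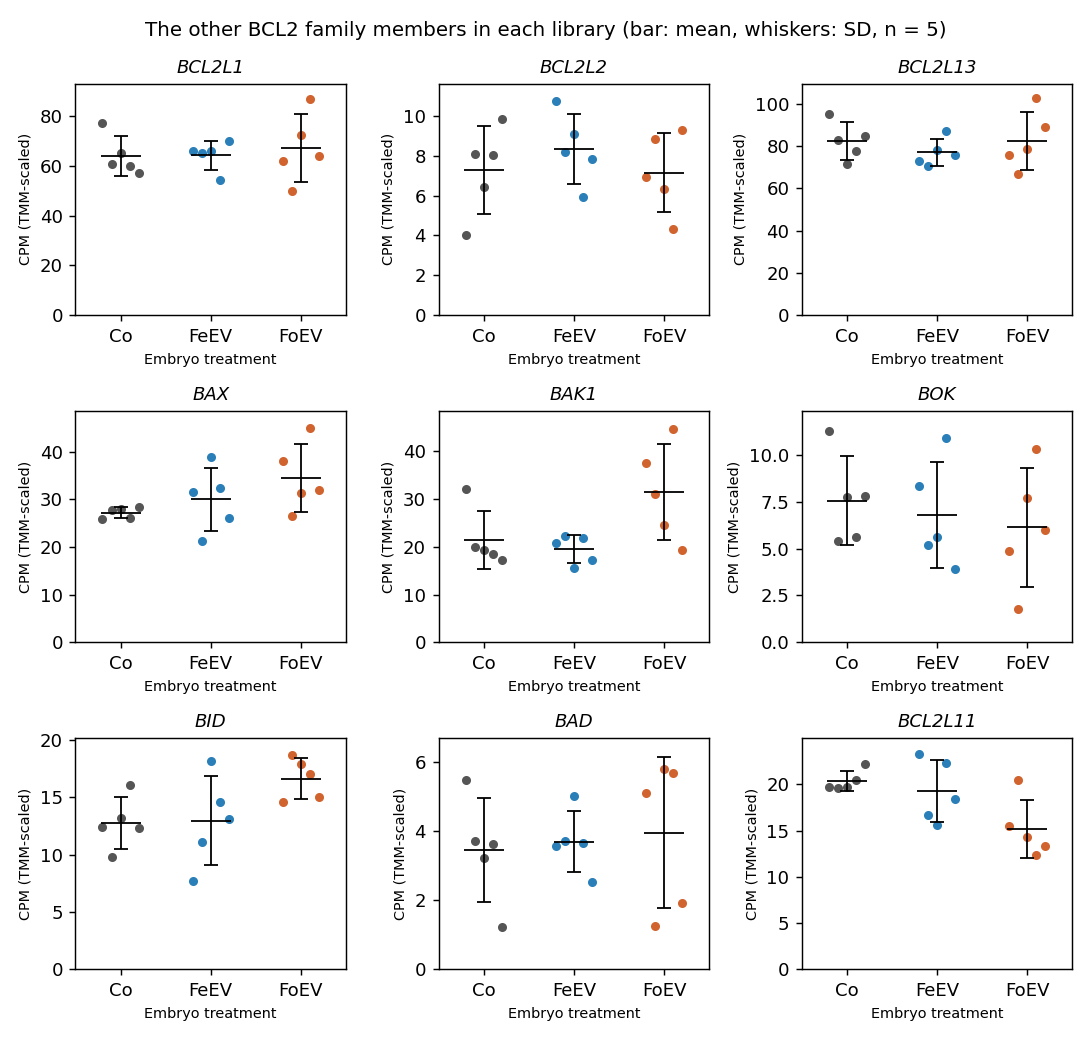
TMM-scaled CPM of the other 9 family genes in each of the 15 libraries, one panel per gene with an axis that starts at 0. Points are libraries, bars are means and whiskers the SD of 5 libraries. The ranges of the treatments overlap in every panel. BAK1 and BAX have their highest libraries in FoEV, at 44.7 and 45.1 CPM, and BCL2L11 has its lowest, at 12.4 CPM.

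Among the BH3-only genes, BCL2L11 had its lowest mean in FoEV and BID its highest. BCL2L11, whose product BIM binds MCL1 and can activate BAX and BAK, stood at 19.7, 19.6, 19.7, 20.5 and 22.2 CPM in Co. In FeEV it stood at 23.2, 16.7, 15.6, 22.3 and 18.4 CPM, and in FoEV at 15.5, 20.4, 14.3, 12.4 and 13.4 CPM. Of the 5 FoEV libraries, 4 were below every Co and every FeEV library, and FoEV replicate 2, at 20.4 CPM, lay inside both other ranges. The means were 20.3 ± 1.09, 19.3 ± 3.37 and 15.2 ± 3.15 CPM (SD, n = 5). For FoEV against Co the fold was 0.753, with a 95% interval of 0.598 to 0.948 (log2 -0.41, SE 0.16, unadjusted p = 0.0182, edgeR adjusted p = 0.230). Without FoEV replicate 2 the log2 value was -0.54, with an edgeR adjusted p of 0.0897. For FoEV against FeEV it was -0.33 (edgeR adjusted p = 0.578) and for FeEV against Co -0.08 (unadjusted p = 0.635 in edgeR).

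BID, which links death receptors to mitochondria once it is cut by caspase-8, stood at 12.4, 9.78, 13.2, 16.1 and 12.3 CPM in Co. In FeEV it stood at 7.75, 11.1, 18.1, 14.6 and 13.1 CPM, and in FoEV at 14.6, 18.7, 17.9, 17.0 and 15.0 CPM. The FoEV libraries were the most even of the 3 treatments, and their range overlapped both others. Their coefficient of variation, 10.8%, was below the counting error of 12.7%, so it understates the error. The log2 fold change was 0.39 for FoEV against Co (SE 0.19, unadjusted p = 0.0601, edgeR adjusted p = 0.354) and 0.36 for FoEV against FeEV (unadjusted p = 0.0717 in edgeR). BAD, a BH3-only protein that survival kinases such as AKT switch off by phosphorylation, had 3 to 22 reads per library and 3.45 ± 1.51, 3.69 ± 0.884 and 3.95 ± 2.18 CPM in Co, FeEV and FoEV. Its fold for FoEV against Co could lie anywhere from 0.630 to 2.00.

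Counted together, 0 of the 10 genes were called at an adjusted p of 0.05 in edgeR, against 0.00923% of all genes in FoEV against Co (ETNK1 alone, an ethanolamine kinase named after its value was seen), 0% in FeEV against Co and 0% in FoEV against FeEV. At an unadjusted p under 0.05, 4 of 10 were past the line in FoEV against Co, with BAK1 and BAX higher and MCL1 and BCL2L11 lower. The share over all genes was 15.1%, made of 8.18% higher and 6.88% lower. None was past it in FeEV against Co, where the share over all genes was 4.15%. In FoEV against FeEV 3 of 10 were past it, with BAK1 higher and MCL1 and BCL2L11 lower, and the share over all genes was 8.52%, made of 4.83% higher and 3.69% lower. These counts moved with the setting. In FoEV against Co the number ran from 2 (without FoEV replicate 4) to 5, and in FoEV against FeEV from 1 to 4. In the latter it was 1 when FeEV replicate 4 or 5 or FoEV replicate 1 or 4 was left out. It was also 1 with no filter, with only the 2 treatments compared and with a block by library number. BCL2L11 lay at the line in FoEV against FeEV, with an unadjusted p of 0.04998 in the main edgeR fit. The likelihood ratio test called 2.87%, 0.0554% and 0.286% of all genes in FoEV against Co, FeEV against Co and FoEV against FeEV, and DESeq2 called 1.33%, 0.00923% and 0.0277%. Each of these tools called MCL1 in FoEV against Co and no other of the 10 genes in any comparison, although DESeq2 gave 5 of the 10 genes no adjusted p in FoEV against Co. The median log2 fold change of the 10 genes was 0.03 in FoEV against Co, beside 0.01 over all genes, and 6 were higher and 4 lower.

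**Figure D4:**
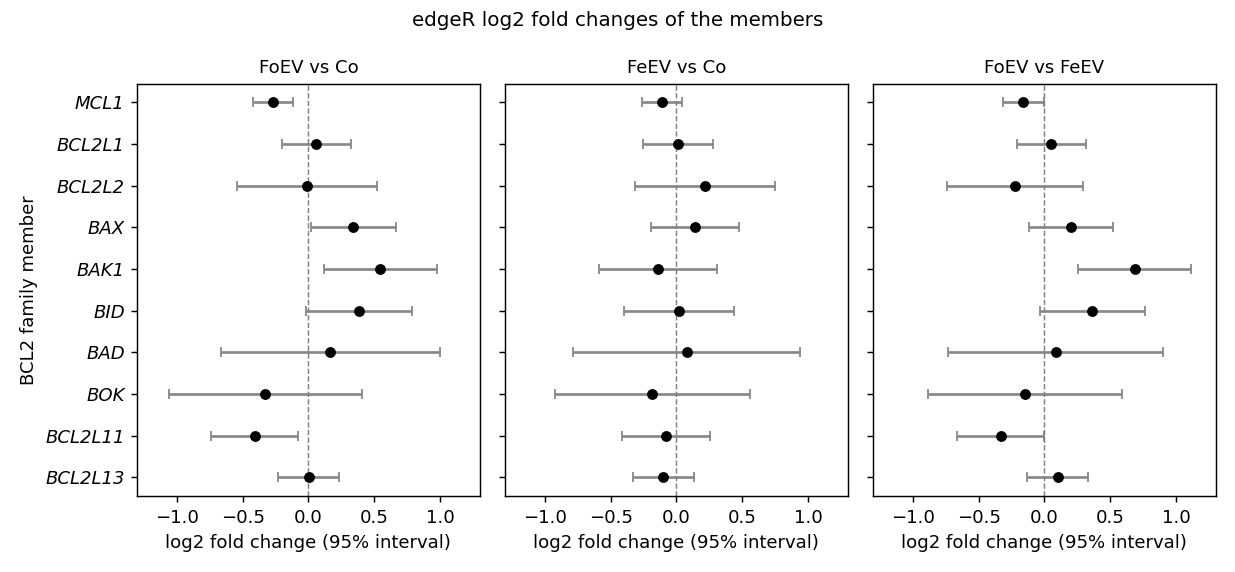
Log2 fold changes of the 10 family genes from the edgeR fit in the 3 comparisons, with 95% intervals. The dashed line marks no change. In FoEV vs Co the intervals of BAK1 and BAX lie above 0 and those of MCL1 and BCL2L11 below it, in FeEV vs Co every interval includes 0, and no adjusted p was under 0.05.

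The libraries did not move evenly across the family. FoEV replicate 4 held the highest value of its treatment for 5 of the genes (BCL2L1, BAX, BAK1, BOK and BCL2L13) and the lowest for 3 (MCL1, BCL2L2 and BCL2L11). FoEV replicate 2 held the lowest value for BCL2L1, BAX, BAD, BOK and BCL2L13. In Co, replicate 1 was highest for BCL2L1, BAK1, BAD, BOK and BCL2L13. The spread of MCL1 was close to the error of counting alone in Co and FeEV and larger than it in FoEV. Its coefficient of variation was 4.25%, 3.53% and 6.32% in Co, FeEV and FoEV, beside 3.69%, 3.67% and 3.48% from the read numbers. In Co, BAX and BCL2L11 varied less than their read numbers alone would give, so the small SDs of these 2 genes in Co understate their error. The same was true of BID in FoEV and of MCL1 and BAD in FeEV. In all, 5 of the 30 pairs of gene and treatment spread less than counting error.

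Ratios between family genes within one library do not depend on how the libraries are scaled. They still carry the unknown lengths of the transcripts, so only their differences between treatments can be read, and they are given as a description with no test. In Co the log2 ratio of BAX to MCL1 reads was -3.30 ± 0.06, against -3.08 ± 0.36 in FeEV and -2.71 ± 0.37 in FoEV (SD over 5 libraries). Each of the 5 FoEV libraries exceeded the highest Co value, and the means differed by 0.59, or by 0.46 to 0.69 when single libraries were left out. MCL1 by itself separates these treatments, and of the 10831 other genes 11.2% had a ratio to MCL1 that was higher in every FoEV library than in every Co library. Put in reads, there were 9.86 MCL1 reads for each BAX read in Co, 8.47 in FeEV and 6.54 in FoEV (geometric means). For BAK1 to MCL1 the log2 ratio was -3.68 ± 0.39 with Co, -3.68 ± 0.19 with FeEV and -2.88 ± 0.56 with FoEV. Here 3 FoEV libraries exceeded the highest Co value and 4 exceeded the highest FeEV value. The ratio of BCL2L11 to MCL1 was -3.72 ± 0.02 in Co, -3.71 ± 0.25 in FeEV and, slightly lower, -3.89 ± 0.27 in FoEV, with overlapping ranges. For this ratio 4 FoEV libraries lay below every Co library and 1 lay above every Co library. In Co, BCL2L11 and BAX levels spread by 5.39% and 4.17%, below their counting errors of 13.4% and 11.6%. The small Co SDs of their ratios to MCL1 therefore understate the error, and the separation of BAX to MCL1 rests on that narrow Co range. The ratio of MCL1 to BCL2L1 was 2.07 ± 0.21, 1.96 ± 0.18 and 1.75 ± 0.34 in Co, FeEV and FoEV, with overlapping libraries.

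**Figure D5:**
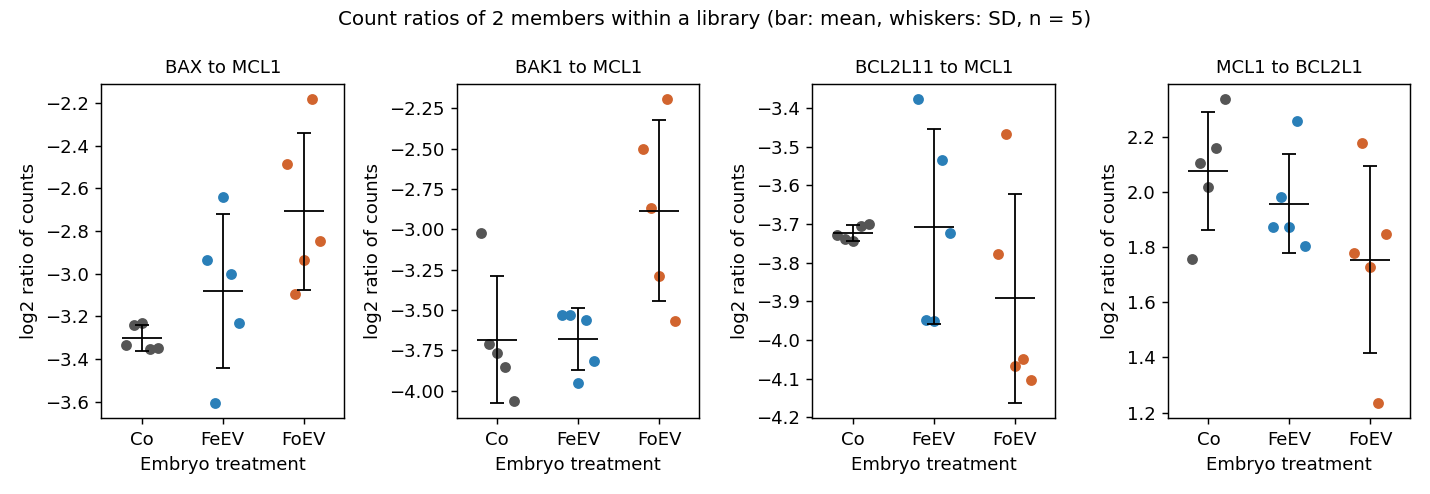
Log2 ratios of the read counts of 2 family genes within each library, for 4 pairs. Points are libraries, bars are means and whiskers the SD of 5 libraries, and the axes do not start at 0. BAX to MCL1 is the pair in which all FoEV libraries lie above all Co libraries, with means of -2.71 and -3.30. In Co, BAX and BCL2L11 varied less than their read numbers alone would give.

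Of 15 further BCL2 family genes, 8 were in the filtered table, and the edgeR quasi-likelihood test called none in any comparison. BCL2L12 had 1 Co library at 7.29 CPM and the other Co libraries between 3.55 and 4.05 CPM, while FoEV lay between 5.72 and 9.01 CPM. Its log2 fold change for FoEV against Co was 0.62 (SE 0.30, unadjusted p = 0.0483, edgeR adjusted p = 0.326), the only one of the 8 with an unadjusted p under 0.05, a line passed by 15.1% of all genes. PMAIP1, which codes for NOXA, the BH3-only protein that binds MCL1 and promotes its breakdown, had 28.7 ± 5.02, 32.7 ± 15.0 and 32.3 ± 9.12 CPM in Co, FeEV and FoEV (SD, n = 5), and its log2 fold change for FoEV against Co was 0.17 (SE 0.26). BMF, a BH3-only protein tied to the cytoskeleton, had a value of 0.39 (SE 0.30), and BCL2L14 of 0.32 (SE 0.26). The mitophagy genes BNIP3 and BNIP3L had -0.03 (SE 0.15) and -0.17 (SE 0.13), and BNIP1 and BNIP2 had -0.03 (SE 0.24) and -0.41 (SE 0.27).

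The other 7 family genes fell below the filter. BCL2 itself, the founding pro-survival gene, had 0 to 19 reads per library and a sum of 10, 17 and 24 reads in Co, FeEV and FoEV, of which FoEV replicate 2 alone held 19. BBC3, the p53 target PUMA, had 2 to 26 reads per library and sums of 52, 48 and 68. BCL2A1 was at 0 in 14 of the 15 libraries. BCL2L10 had at most 6 reads, BIK 5, BCL2L15 2 and HRK 1. Differences between treatments in these genes were not tested.

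Genes that make, stabilize or break down MCL1 were looked at as a list of 15, of which 13 were in the filtered table. None had an unadjusted p under 0.05 in any comparison. Over all genes 15.1% had one in FoEV against Co, 4.15% in FeEV against Co and 8.52% in FoEV against FeEV. The median log2 fold change of the list was -0.12 in FoEV against Co, -0.05 in FeEV against Co and -0.01 in FoEV against FeEV, beside 0.01, 0.00 and 0.01 over all genes. The ubiquitin ligase HUWE1, which marks MCL1 for the proteasome, had 604 ± 90.9 CPM in Co and 596 ± 83.1 CPM in FoEV, a log2 difference of -0.02. The deubiquitinase USP9X, which stabilizes MCL1, had a log2 fold change of 0.05, and TPT1, which codes for an MCL1-binding protein, of 0.08. CDK9, the kinase that keeps short-lived transcripts such as that of MCL1 in production, had 0.18 (SE 0.09, unadjusted p = 0.0661 in edgeR). The mitochondrial ubiquitin ligase MARCHF5 had the smallest unadjusted p of the list in FoEV against Co, 0.0585, with a log2 fold change of -0.27 (SE 0.14). SF3B1, a splicing factor, had -0.16 and GSK3B, the kinase that primes MCL1 for degradation, -0.15. GSK3B led the list in FeEV against Co, with -0.17 (unadjusted p = 0.0595 in edgeR), and CCNT1, the cyclin partner of CDK9, in FoEV against FeEV, with -0.25 (unadjusted p = 0.0622 in edgeR). GSK3A, the close relative of GSK3B, had -0.17 (SE 0.16) in FeEV against Co and 0.22 (SE 0.16) in FoEV against FeEV, and STAT3, a transcription factor that drives MCL1 in many cells, had -0.18 (SE 0.19) in FeEV against Co.

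Of 23 listed partners of the pore formers and BH3-only proteins, 21 were tested and the edgeR quasi-likelihood test called none. In all, 3 had an unadjusted p under 0.05 in FoEV against Co, each higher in FoEV, a share close to the 15.1% of all genes. YWHAH, a 14-3-3 protein of the group that holds phosphorylated BAD in the cytosol, had 147 ± 15.0, 162 ± 7.92 and 189 ± 17.1 CPM in Co, FeEV and FoEV (SD, n = 5). Its log2 fold change for FoEV against Co was 0.36 (SE 0.09, unadjusted p = 0.000542, edgeR adjusted p = 0.0948), and it was called by the likelihood ratio test (adjusted p = 0.0122 in edgeR) and by DESeq2 (adjusted p = 0.0136). AKT1, a kinase that phosphorylates BAD, had 0.32 (SE 0.11, edgeR adjusted p = 0.196), and BCAP31, an endoplasmic reticulum protein of the apoptotic crosstalk with mitochondria, had 0.34 (SE 0.16, edgeR adjusted p = 0.321). YWHAZ, another 14-3-3 gene, had -0.17 (SE 0.09, unadjusted p = 0.0654 in edgeR). In FoEV against FeEV the 2 genes past the line were YWHAH at 0.22 and BCAP31 at 0.36, beside 8.52% of all genes. None of the partners was past it in FeEV against Co, beside 4.15% of all genes. VDAC3, a channel of the outer mitochondrial membrane, had 0.18 (SE 0.12) in FoEV against Co and 0.19 (SE 0.12) in FeEV against Co. The smallest unadjusted p in FeEV against Co, 0.0966 in edgeR, was that of MTCH2, the mitochondrial receptor of truncated BID, with a log2 fold change of 0.18 (SE 0.10). SH3GLB1, a BAX-binding membrane protein, had -0.19 (SE 0.13) there, and the 14-3-3 gene YWHAE had -0.11 (SE 0.08) in FoEV against FeEV. The median of the 21 genes was 0.02 in FoEV against Co.

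Over the 15 libraries, the genes whose log2 CPM followed MCL1 most closely were DIS3L2 (Pearson r = 0.952, Spearman rho = 0.900), BZW1 (r = 0.927, rho = 0.914), MKLN1 (r = 0.921, rho = 0.907), KLF5 (r = 0.891, rho = 0.896) and PSMD5 (r = 0.888, rho = 0.821). DIS3L2 is an RNA exonuclease, KLF5 a transcription factor of the early embryo and PSMD5 a chaperone of proteasome assembly. They were picked for this likeness out of the whole table and share libraries, scaling and depth with MCL1, so the values are a description over 3 treatments pooled. Their means all ran in the order of MCL1, for example from 91.6 ± 5.40 CPM in Co through 78.0 ± 4.96 in FeEV to 64.1 ± 9.74 in FoEV for MKLN1 (SD, n = 5). Within the family, BCL2L11 ran with MCL1 (r = 0.681, rho = 0.593), and BAK1 (r = -0.674, rho = -0.589) and BAX (r = -0.652, rho = -0.511) ran against it. The remaining family genes had r between -0.389 (BID) and 0.218 (BOK). BCL2L11, BAK1 and BAX were, with MCL1, the family genes with an unadjusted p under 0.05 in FoEV against Co (edgeR). Their pooled r therefore also carries the differences between treatment means.

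Of the 10 family genes, 7 overlap another gene model in the RefSeq annotation of a newer assembly, ARS-UCD2.0, and the setting for strand in the counting was not given in the sources used here. The largest neighbour was PABPN1 at BCL2L2, with 3233 reads over all libraries. GPR137 at BAD had 382 reads and TULP2 at BAX 94. MCL1, BAK1 and BOK overlap no other gene model there.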

How the data were processed

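Total RNA of 15 embryo pools was made into libraries with a kit that selects strand and depletes ribosomal RNA. The deposited values were raw read counts per NCBI gene, made by the authors on bovine assembly ARS-UCD1.2 (bosTau9), in a filtered and an unfiltered table. The submitters' processing notes name Trim Galore 0.4.3.1, HISAT2 2.1.0 and featureCounts 1.6.3, whereas the study's methods name another counter, QuasR. The methods also give a longer culture than the labels' day 7. Symbols came from the RefSeq table of ARS-UCD2.0, which matched 10709 of the 10832 gene IDs.

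All 15 libraries entered one edgeR fit (4.0.16, R 4.3.3; TMM, quasi-likelihood F test, robust, treatment only), with Benjamini-Hochberg adjustment over all 10832 genes and calls at an adjusted p of 0.05. CPM values are the deposited counts divided by the TMM-scaled library totals. DESeq2 (1.42.0) and other settings were alternatives, among them the study's type of test, edgeR with robust dispersions and a likelihood ratio. Scripts were tested on simulated data. Replicate pairs differed by more than sampling noise (chi-square per degree of freedom 3.93 to 31.6). Libraries of the same replicate number did not deviate together throughout, so numbers were not taken as pairs. The shared oviducts of the fresh and frozen oEVs were not part of the fit. The genes and lists were chosen with earlier results of these data known. Named were every family gene, in 2 pathway lists the 5 smallest unadjusted p per comparison with HUWE1, USP9X, TPT1 and CDK9, and the 5 genes nearest to MCL1. Transcript lengths were not used here, so levels of different genes were not ranked.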

Additional observations from a re-analysis of the deposited data

Results flagged for a closer look

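Of 54 groups of 5 libraries (18 BCL2 family genes in 3 treatments), 4 held a library far from the others by Dixon's criterion, which chance alone gives in about 1 in 20 groups. MCL1 had its highest Co library at 288 CPM, with the next at 267 CPM. BAK1 had its highest Co library at 32.1 CPM, with the next at 19.9 CPM. BCL2L12 had its highest Co library at 7.29 CPM, with the next at 4.05 CPM. BCL2L1 had its lowest FeEV library at 54.2 CPM, with the next at 65.4 CPM.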

How the results depend on the processing

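Counts of calls depended on the tool. FoEV against Co gave 1 gene in the edgeR quasi-likelihood fit, 311 by the likelihood ratio test, 144 by DESeq2, 173 with no filter, 5 with only the 2 treatments compared and 8 after thinning to one depth, an alternative chosen after seeing the data. FeEV against Co gave 0, or 6, 1 and 13 by the likelihood ratio test, DESeq2 and no filter, and FoEV against FeEV 0, or 31, 3 and 22. Of the 10 BCL2 family genes, 1 (MCL1) was called in FoEV against Co by the likelihood ratio test and by DESeq2, and 1 (BAK1) in FoEV against FeEV with no filter. Leaving out 1 library gave 0 to 58 genes in FoEV against Co (58 without FoEV replicate 2, 14 without FoEV replicate 3, 4 without Co replicate 2, and 0 without Co replicates 3 or 4 or FoEV replicates 1, 4 or 5) and 0 to 1 in FoEV against FeEV (1 without FeEV replicate 5), and never called one of the 10 BCL2 family genes. The causes were not tested.

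Libraries of the same replicate number correlated in their deviations at -0.291 to 0.347 for FoEV and Co, with 1 of 5 pairs over 0.1. In each of the other comparisons 3 of 5 pairs were over 0.1. A replicate block gave 57, 0 and 0 genes in FoEV against Co, FeEV against Co and FoEV against FeEV, and a block by the library number in the labels 12, 0 and 1, with none of the 10 BCL2 family genes.

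None of the family values whose direction turned was past an unadjusted p of 0.05. BCL2L13 in FoEV against Co, at 0.00 on the log2 scale, became -0.021 (likelihood ratio test), -0.0059 (DESeq2), -0.0051 (size factors), -0.0053 (ribosomal RNA removed), -0.0036 (no filter), -0.00085 (filter of the methods) and -0.0091 (replicate block). In FeEV against Co, thinning turned BCL2L1 and BID to -0.054 each, and the library-number block turned BCL2L2 from 0.22 to -0.018, BAK1 from -0.14 to 0.16, BOK from -0.18 to 0.25 and BCL2L13 to 0.030. With single libraries left out, the log2 values crossed 0 in FoEV against Co for BCL2L1 (-0.047 to 0.15), BCL2L2 (-0.16 to 0.12), BAD (-0.031 to 0.40) and BCL2L13 (-0.085 to 0.070). They did so in FeEV against Co for BCL2L1 (-0.029 to 0.085), BAK1 (-0.20 to 0.053), BID (-0.14 to 0.17), BAD (-0.12 to 0.30) and BOK (-0.39 to 0.0061), and in FoEV against FeEV for BCL2L1 (-0.056 to 0.14), BAD (-0.10 to 0.32) and BOK (-0.40 to 0.10). MCL1 kept its direction in all settings and comparisons run. BAD, BOK and BCL2L2 had as few as 3, 7 and 11 reads in a library, and BOK in every treatment and BAD in Co and FoEV spread more than counting error alone gives. Levels of different genes were not ranked, since transcript lengths were not used here.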
